A study of Mus musculus with 5480 samples.

Results

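The Hox genes of mouse lung mesenchyme were taken as all genes of the deposited count table whose symbol is Hoxa, Hoxb, Hoxc or Hoxd followed by a number. The rule found 21 of the 18072 genes in the table. They comprised 8 HoxA genes, 7 HoxB genes (Hoxb2 to Hoxb8), 1 HoxC gene (Hoxc4) and 5 HoxD genes (Hoxd3, Hoxd4, Hoxd8, Hoxd9 and Hoxd10). The study made plate-based transcriptome libraries, with Tn5 transposase, of 5480 single cells sorted from the distal lung. The cells came from 10 mice, with 1 female and 1 male mouse in each of 5 groups. The groups were normal air at embryonic day 18.5 (E18.5) and at postnatal days 1, 7 and 21 (P1, P7 and P21), and hyperoxia at P7. All were labelled only by sex, age and exposure: no strain, allele or oxygen level is given in the sources used here. The mesenchymal sort gave 5409 cells, and 69 cells came from a CD31 sort and 2 from a CD45 sort. The authors' labels name 16 subtypes, and their early and later forms were joined here into 6 classes: alveolar fibroblasts, adventitial fibroblasts, myofibroblasts, airway smooth muscle, vascular smooth muscle and pericytes.

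Hox genes encode homeodomain transcription factors that lie in clusters named A to D. Their order along each cluster follows the head-to-tail order in which they are used in the embryo, and genes of the same number in different clusters are paralogs. Hox proteins bind DNA together with TALE homeodomain partners of the Pbx, Meis and Pknox families, and retinoic acid is a classical inducer of the genes at the low-numbered end. In the lung, mesenchymal Hoxa5 and Hoxb5 are known for roles in branching and in airway and alveolar patterning. Polycomb proteins keep unused Hox genes silent, and Trithorax proteins keep used ones active.

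Counts of a class were summed within each mouse, giving 50 class libraries with 14 to 393 cells, 40 of them in normal air. A level below is in CPM (read counts scaled to library size) of such a summed library, and n is the number of mice. The cells held 39358 to 5177020 reads (median 774305). The counts are reads and not tagged molecules, so intervals given for shares of cells cover counting error only. The marker lists of the 6 classes were read first. The alveolar, adventitial, pericyte and airway smooth muscle lists had a higher median sum in their own class than in the other 5. The vascular smooth muscle list did not separate its class: it summed to 1037 to 4705 CPM there and to 2044 to 4553 CPM in airway smooth muscle. The myofibroblast list likewise reached 4032 to 15223 CPM in airway smooth muscle against 5143 to 9437 CPM in myofibroblasts. The authors named the subtypes from the expression of these same cells, so a difference between classes is not independent of the names. The E18.5 alveolar fibroblast libraries stood apart: they held 14 and 24 cells, with medians of 1042.5 and 920.0 genes per cell at 100000 reads. In the female one the epithelial markers summed to 1093 CPM and the immune markers to 350.2 CPM, against 25.9 and 9.36 CPM in the male one. Without all E18.5 libraries, 4 Hox tests between classes were called, against 3 with them. The sum of the mesothelial list was 139.6 to 890.0 CPM in the alveolar libraries and had a median of at most 2.0 CPM in the other 5 classes, with up to 768 CPM in adventitial fibroblasts. Its part in the differences from alveolar fibroblasts was not tested.

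RefSeq (GRCm38.p6) gave a promoter window for 14 of the 21 genes. The 250 bases before the start of Hoxa2, Hoxa5 and Hoxb4 are shown, 5′ to 3′ on the gene's strand, as examples of genes whose levels are described below in alveolar fibroblasts (Hoxa2, Hoxa5) and pericytes (Hoxb4). Capitals mark matches, on either strand, to 4 words: TGATNNAT (joint Hox and Pbx sites), TGACAG (Meis and Pknox), AGGTCA (half-site of retinoic acid receptors) and TAATTA (homeodomains). No match overlapped another match in these 3 windows.
Hoxa2, chr6:52164832-52165081, minus strand: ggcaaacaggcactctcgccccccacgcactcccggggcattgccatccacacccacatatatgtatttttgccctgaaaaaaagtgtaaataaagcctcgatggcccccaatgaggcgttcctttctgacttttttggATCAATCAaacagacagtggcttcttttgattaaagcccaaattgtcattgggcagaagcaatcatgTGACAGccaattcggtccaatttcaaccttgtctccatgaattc
Hoxa5, chr6:52204588-52204837, minus strand: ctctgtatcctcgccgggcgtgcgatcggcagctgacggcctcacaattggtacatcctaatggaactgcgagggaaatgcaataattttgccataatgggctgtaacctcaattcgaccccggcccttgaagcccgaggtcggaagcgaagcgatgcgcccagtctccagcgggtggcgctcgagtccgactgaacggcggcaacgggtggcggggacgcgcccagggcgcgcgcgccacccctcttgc
Hoxb4, chr11:96318017-96318266, plus strand: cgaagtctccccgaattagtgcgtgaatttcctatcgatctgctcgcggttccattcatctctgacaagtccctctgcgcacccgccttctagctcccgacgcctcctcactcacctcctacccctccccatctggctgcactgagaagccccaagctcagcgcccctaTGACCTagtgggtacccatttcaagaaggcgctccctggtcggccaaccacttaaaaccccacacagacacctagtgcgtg

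The Hoxa2 window held 1 match of the Hox and Pbx word, which 7.68% of all 32851 windows of this length hold, and 1 of the Meis and Pknox word (15.9%). Hoxa5 held none of the 4 words, and its window had a G+C content of 63.6% against a median of 52.4%. Hoxb4 held 1 AGGTCA, on the minus strand. Over the 14 windows, 6 held AGGTCA, against 14.0% of all windows: Hoxb4, Hoxc4, Hoxd3, Hoxd4, Hoxd8 and Hoxd10. None of the 6 HoxA windows held it. TAATTA, found in 4.84% of windows, was in none of the 14. These are matches of letters and show no binding.

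Expression was carried by the low-numbered and middle HoxA and HoxB genes. A gene was described in full where it reached 10 CPM in both mice of some group in some class, which 11 genes did, among them Hoxa2, Hoxa3, Hoxa4, Hoxa5, Hoxa7, Hoxb2, Hoxb4, Hoxb5, Hoxb6 and Hoxb7. Per kilobase of exon, the mean level over the 50 class libraries was highest for Hoxb5 (26.3 CPM per kilobase) and Hoxa5 (25.7). Hoxa2 (10.7), Hoxb6 (9.96), Hoxa7 (8.31), Hoxb4 (7.03), Hoxa4 (6.50) and Hoxb2 (6.03) followed. Hoxb7 (3.16), Hoxa3 (1.48), Hoxa6 (1.10) and Hoxb3 (0.847) were lower. A further 8 genes were each at or below 0.153 CPM per kilobase.

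Detection in single cells gave the same leaders. With every cell thinned to 100000 reads, which left out 168 shallower cells, Hoxa5 had a read in 44.5% of cells, Hoxb5 in 42.4%, Hoxb2 in 31.4% and Hoxb4 in 19.1%. Without thinning these shares were 49.2%, 46.8%, 36.4% and 28.1%. Striated muscle cells, 16 cells of the female P21 mouse, gave a background: 92.9% of the 14 left after thinning had no Hox read, and their HoxA sum was 0.799 CPM per kilobase. Their median depth was 295946 reads a cell.

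**Figure D1:**
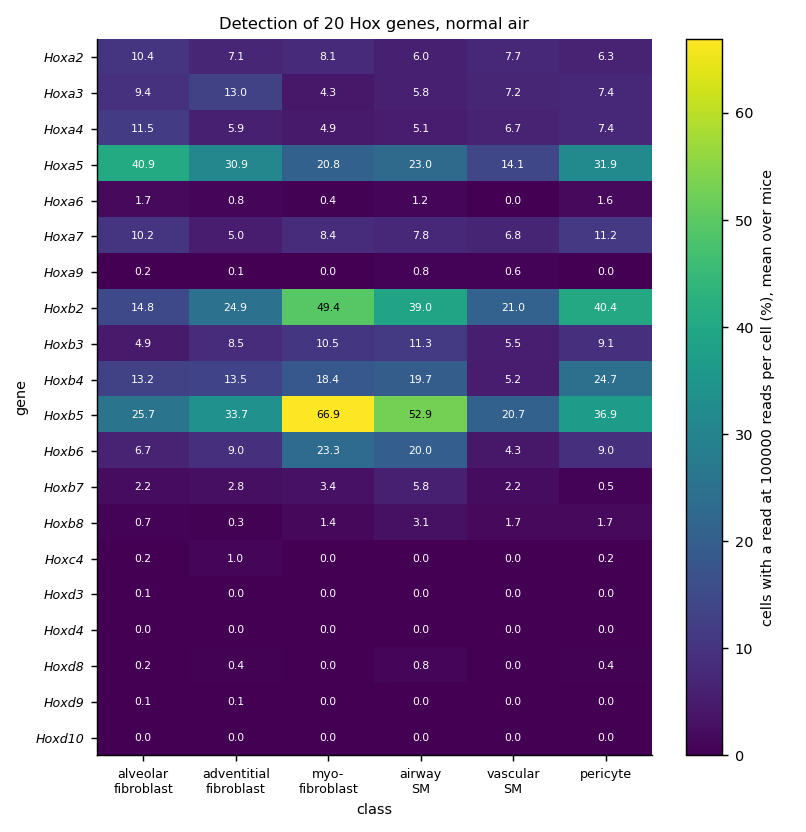
Share of cells with at least 1 read of each of 20 Hox genes (rows) in the 6 classes (columns), in percent, after thinning each cell to 100000 reads, averaged over the normal-air mice. Hoxb5 in myofibroblasts (66.9%) and in airway smooth muscle (52.9%) had the highest shares, and the HoxC and HoxD rows were near 0.

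Hoxb5 passed the test as higher in myofibroblasts than in alveolar fibroblasts, and as higher in airway than in vascular smooth muscle. Myofibroblasts, the contractile cells of the forming alveolar septa, were present at P1 and P7. Hoxb5 there was 187 and 136.5 CPM in the female and male mouse at P1, and 178 and 247 CPM at P7. Alveolar fibroblasts of the same 4 mice had 52.8, 34.6, 46.0 and 48.5 CPM of Hoxb5, and no value of the 2 classes overlapped. In the fit of the 40 normal-air libraries with mouse as a block, Hoxb5 was higher in myofibroblasts by a log2 fold change of 1.90 (SE 0.471, edgeR adjusted p = 0.0138). Of all 15175 genes tested 3.97% were called in this comparison, and Hoxb5 was the only 1 of 16 Hox genes. The call was lost in turn without the female P1, female P7, male P1 or male P7 mouse, with log2 fold changes between 1.73 and 2.03 over all 8 mice left out. It was kept without the E18.5 libraries (1.68, edgeR adjusted p = 0.0107). A second gene sharing exon bases, Hoxb5os, cannot be separated from Hoxb5 because the strand setting of the counting is not given in the sources used here.

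In airway smooth muscle, Hoxb5 was 138 and 205 CPM at P1, 132 and 146 CPM at P7, and 55.7 and 72.0 CPM at P21, female before male. Vascular smooth muscle of the same mice had 19.2, 52.0, 66.4, 17.5, 11.7 and 45.6 CPM of Hoxb5. Airway smooth muscle was higher in 6 of 6 mice (5 of 6 with each cell weighted equally), although the female P21 airway value lay inside the vascular range. The log2 fold change was 1.80 (SE 0.455, edgeR adjusted p = 0.0171), in a comparison where 3.99% of genes were called and 1 of 16 Hox genes. In 4 of the 6 vascular libraries, 84.3% to 89.8% of the Hoxb5 reads came from a single cell. The call was lost with at least 20 cells per library, with each cell weighted equally, and without the female P1, female P21, male P1 or male P7 mouse.

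The neighbouring genes Hoxb6, Hoxb2 and Hoxb7 were not called between classes. Hoxb6 was 47.9 and 38.1 CPM at P1 and 49.3 and 31.1 CPM at P7 in myofibroblasts, and 6.88, 10.4, 5.81 and 15.3 CPM in alveolar fibroblasts of those mice (log2 difference 2.19, SE 1.23, edgeR adjusted p = 0.474). In airway smooth muscle Hoxb6 ranged from 12.7 to 68.7 CPM (median 34.8, n = 6) and in vascular smooth muscle from 0 to 12.3 CPM. Airway was above vascular in each of the 6 mice (edgeR adjusted p = 0.102). Hoxb5, Hoxb6 and Hoxb7 were higher in airway smooth muscle in every mouse, as 5.6% of all genes were. Hoxb2 was 38.1, 48.3, 54.1 and 41.6 CPM in myofibroblasts of the same 4 mice and 8.57, 10.5, 7.66 and 11.1 CPM in their alveolar fibroblasts (edgeR adjusted p = 0.261). Hoxb2 had a read in 46.1% to 53.3% of thinned myofibroblasts (n = 4) and in 4.76% to 25.0% of alveolar fibroblasts (n = 8). The alveolar range covers all normal-air ages, the E18.5 libraries that stood apart included. Hoxb5, Hoxb6 and Hoxb2 were higher in myofibroblasts than in alveolar fibroblasts in every mouse with both, a pattern that 14.8% of all genes tested also showed. Hoxb7 reached 15.3 CPM in airway smooth muscle and was at 0 in 6 of the 8 pericyte libraries.

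**Figure D2:**
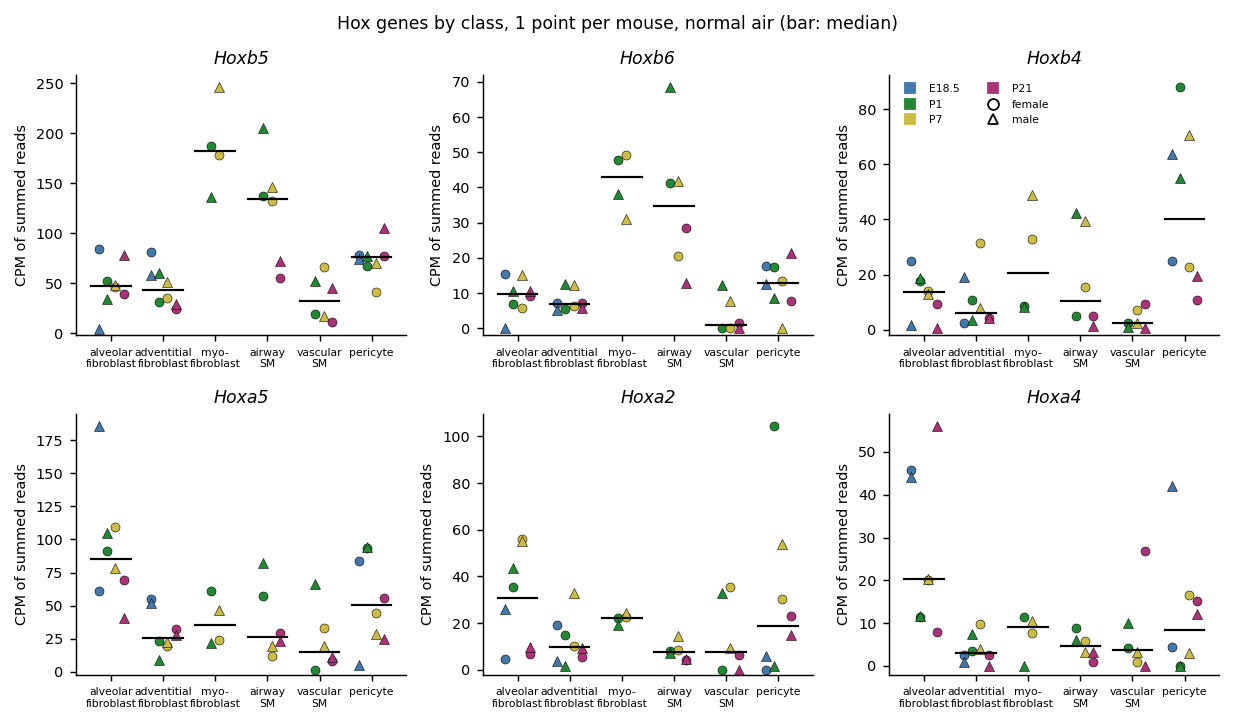
Level of 6 Hox genes (CPM of summed reads, linear axes) in the 6 classes of normal-air mice. Each point is 1 mouse, coloured by age and shaped by sex, and bars are medians. Hoxb5 and Hoxb6 are highest in myofibroblasts and airway smooth muscle, Hoxb4 in pericytes, and Hoxa5 in alveolar fibroblasts (median 85.0 CPM).

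No Hox gene passed the test between myofibroblasts and airway smooth muscle, which does not show that they were alike. Their Hoxb5 means were 187 ± 45.5 CPM (SD, n = 4) and 125 ± 54.2 CPM (SD, n = 6). The edgeR test called 0 of 16 Hox genes and 13 of 15175 genes (0.0857%). No Hox gene had an unadjusted p under 0.05, against 7.41% of all genes. DESeq2 and limma also called no Hox gene here.

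Pericytes, the contractile cells around capillaries, had the highest class mean of Hoxb4 (44.5 CPM, n = 8). It was also present in myofibroblasts (mean 24.6, up to 48.7 CPM, n = 4) and airway smooth muscle (mean 18.1, up to 42.2 CPM, n = 6). The mean shares of thinned cells with a read were 24.7%, 18.4% and 19.7% in these 3 classes. In pericytes Hoxb4 was 25.0 and 63.7 CPM at E18.5, 88.2 and 55.2 CPM at P1, 22.9 and 70.8 CPM at P7, and 11.0 and 19.4 CPM at P21, female before male. In vascular smooth muscle, the mural cells of larger vessels, Hoxb4 was 2.43 and 1.04 CPM at P1, 7.02 and 2.30 CPM at P7, and 9.44 and 0.484 CPM at P21. The 8 pericyte values were all above the 6 vascular values. Hoxb4 and Hoxa5 were higher in pericytes in every mouse with both classes, as 4.98% of genes were. The log2 fold change was 3.65 (SE 0.918, edgeR adjusted p = 0.0106), where 7.39% of genes and 1 of 16 Hox genes were called. Hoxb4 had a read in 13.9% to 35.7% of thinned pericytes per mouse and in 0 to 7.69% of vascular smooth muscle cells. The call was lost with at least 20 cells per library (log2 2.74, edgeR adjusted p = 0.206) and when either the P1 female or the P7 male was left out. In 4 of the 6 vascular libraries at least 83.9% of the Hoxb4 reads were from 1 cell, and in the male E18.5 pericytes 90.0% were.

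Against alveolar fibroblasts, pericytes had a higher Hoxb4 level in 8 of 8 mice, a pattern shown by 3.66% of genes, and in 7 of 8 with each cell weighted equally. The log2 difference of 2.11 (SE 0.751) missed the threshold (edgeR adjusted p = 0.0586), as did Hoxb2 (1.80, SE 0.684, edgeR adjusted p = 0.0784). The edgeR test called 13.4% of genes in this comparison and 0 of 16 Hox genes. An unadjusted p under 0.05 was found for 3 of these 16 and for 25.4% of all genes. DESeq2 called 3 Hox genes here, Hoxb2, Hoxb4 and Hoxb7, and its share of all genes called is not given. Hoxb5 in pericytes was 73.9 ± 17.5 CPM (SD, n = 8).

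Hoxa5 and Hoxa4 had their highest class means in alveolar fibroblasts, the fibroblasts of the air space walls. Hoxa5 was 61.5 and 186 CPM there at E18.5, 91.3 and 105 CPM at P1, 109 and 78.7 CPM at P7, and 69.1 and 40.8 CPM at P21. In adventitial fibroblasts, which sheath the airways and vessels, the same mice had 55.3 and 52.2, 23.4 and 8.82, 19.2 and 22.6, and 32.2 and 28.0 CPM of Hoxa5. Adventitial cells were lower in 8 of 8 mice, in 7 of 8 with each cell weighted equally and in 6 of 8 by the share of thinned cells with a read. Only the E18.5 adventitial values lay inside the alveolar range. The log2 difference of -1.54 (SE 0.550) did not pass the threshold (edgeR adjusted p = 0.125). The same held for Hoxa4, which was 8.04 to 56.1 CPM (median 20.2) in alveolar and 0.106 to 9.79 CPM (median 3.11) in adventitial fibroblasts. Its log2 difference was -2.63 (SE 1.22, edgeR adjusted p = 0.320). Hoxa4 and Hoxa5 were lower in every mouse, a pattern that 2.58% of genes showed. The edgeR test called 4.16% of genes and 0 of 16 Hox genes. An unadjusted p under 0.05 was found for 5 of these 16 and for 13.5% of all genes. DESeq2 called Hoxa4 and Hoxa5, and its share of all genes called is not given.

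Hoxa2, known for patterning the hindbrain and neural crest, was high in alveolar fibroblasts at P7. Its levels there were 4.80 and 26.2 CPM at E18.5, 35.5 and 43.7 CPM at P1, 56.2 and 55.1 CPM at P7, and 7.00 and 9.89 CPM at P21. Myofibroblasts had 22.2, 19.1, 22.5 and 24.5 CPM of Hoxa2 at P1 and P7, lower in 4 of 4 mice, as 18.3% of all genes were, and in 3 of 4 with each cell weighted equally. The log2 difference of -1.05 (SE 1.26) did not pass the test (edgeR adjusted p = 0.895). Mean Hoxa2 over the normal-air mice was 29.8 CPM in alveolar fibroblasts and 29.3 CPM, up to 104 CPM, in pericytes (n = 8 each). Hoxa7 was 29.1 ± 14.8 CPM (SD, n = 8) in alveolar and 7.57 ± 8.15 CPM (SD, n = 8) in adventitial fibroblasts (edgeR adjusted p = 0.352). Its mean was higher still in vascular smooth muscle (42.9 ± 40.3 CPM, SD, n = 6) and pericytes (31.9 ± 18.6 CPM, SD, n = 8). Hoxa3 was between 0 and 37.4 CPM in all normal-air libraries, with class means from 3.68 to 11.2 CPM. Over the 6 described HoxA genes, all 6 fitted log2 differences of myofibroblasts from alveolar fibroblasts were below 0 (median -1.20), while 4 of the 5 HoxB differences were above 0 (median 1.90). The median over all 15175 genes was -0.06. Of these 11 genes only Hoxb5 passed the test.

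The balance between the clusters, taken from the same reads as the levels above, differed between classes. Its HoxB sum includes Hoxb5, the Hox gene with the highest mean level per kilobase. HoxB genes made up a median of 27.8% of the summed HoxA and HoxB level per kilobase in alveolar fibroblasts (2.0% to 40.9%, n = 8). In myofibroblasts the median was 72.8% (62.7% to 74.3%, n = 4) and in airway smooth muscle 71.1% (60.5% to 79.3%, n = 6), so neither overlapped the alveolar range. Adventitial fibroblasts (median 47.7%, 37.4% to 71.0%, n = 8), pericytes (45.2%, 37.4% to 62.9%, n = 8) and vascular smooth muscle (38.8%, 17.4% to 63.1%, n = 6) had medians between these. Their ranges overlapped each other and also the alveolar, myofibroblast and airway ranges. The alveolar low of 2.0% was the male E18.5 library, and the other alveolar values were 19.8% or more. The sums themselves were, as medians, 96.4 CPM per kilobase of HoxA and 32.9 of HoxB in alveolar fibroblasts, and 50.1 and 117 in myofibroblasts. Adventitial fibroblasts had low sums of both, 28.7 and 32.3 CPM per kilobase. These shares carry no test, and the part of Hoxb5 alone in them was not separated. Hoxb5 was the only HoxB gene called between myofibroblasts and alveolar fibroblasts.

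**Figure D3:**
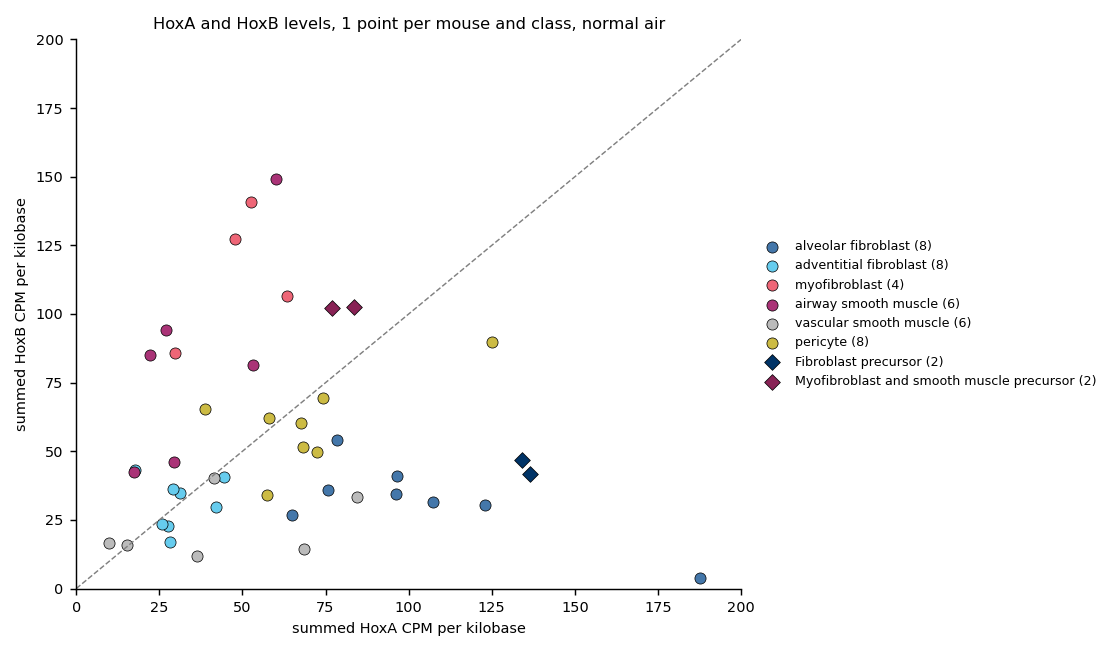
Summed HoxA level (horizontal) against summed HoxB level (vertical), both in CPM per kilobase of exon. Each point is 1 mouse and class in normal air, diamonds are the E18.5 precursors, and the dashed line marks equal sums. Myofibroblasts and airway smooth muscle lie above the line, alveolar fibroblasts and fibroblast precursors below it.

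The split was also read in the single cells behind these sums. After thinning, a median of 53.2% of myofibroblasts per mouse had reads of HoxB genes and none of HoxA (47.1% to 55.6%), and 3.33% had HoxA reads only. In alveolar fibroblasts (n = 8, E18.5 included) 13.4% had HoxB reads only (4.76% to 18.6%) and 25.2% HoxA reads only (0 to 38.1%). Cells with reads of both made up 33.2% of myofibroblasts and 37.2% of alveolar fibroblasts. The part with no Hox read at this depth was 11.2% in myofibroblasts, 12.9% in airway smooth muscle, 17.0% in pericytes, 23.1% in adventitial and 28.7% in alveolar fibroblasts, and 48.2% in vascular smooth muscle. A cell without a read at this depth may still express the gene.

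At E18.5 most cells carried the labels fibroblast precursor (425 and 335 cells) or myofibroblast and smooth muscle precursor (101 and 123 cells). Hoxb5 was 121 and 135 CPM in myofibroblast and smooth muscle precursors and 65.1 and 72.0 CPM in fibroblast precursors, female before male. Hoxa5 was 71.4 and 82.9 CPM in the first and 166 and 176 CPM in the second. Hoxb2, Hoxb4, Hoxb5 and Hoxb6 were higher in both mice of the first without overlap (24.2% of all genes were higher this way), and Hoxa2, Hoxa3 and Hoxa5 lower (29.4%). With 2 mice the edgeR test called 0 of 15 Hox genes in each of 3 comparisons of E18.5 subtypes and 0.275%, 0.0564% and 0.289% of the 14190 genes. A total of 4 of the 45 Hox tests had an unadjusted p under 0.05, as 5.83% to 16.1% of all genes per comparison did. DESeq2 and limma each called 2 of the Hox tests, both for Hoxb7, and their shares of all genes called are not given. With at least 20 cells per library 3 were called, all in early alveolar fibroblasts, which then had 1 library, of 24 cells, assumed to vary like the other groups. HoxB made up 55.2% and 57.1% of the summed level in myofibroblast and smooth muscle precursors and 23.4% and 25.8% in fibroblast precursors.

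Proliferating myofibroblasts at P7 (32 and 45 cells) had 166 and 133 CPM of Hoxb5 and 11.8 and 30.4 CPM of Hoxa5. Proliferating fibroblasts at E18.5 and in the female at P7 (17 to 35 cells) had 110, 144 and 103 CPM of Hoxa5. Their Hoxb5 was 46.5, 171 and 45.5 CPM, and 48.0% of the reads behind the male E18.5 value and 56.6% behind the P7 value came from 1 cell. The 55 cells labelled Male hyperoxic fibroblast, all of 1 mouse, had 75.0 CPM of Hoxa5 and 27.3 CPM of Hoxb5, where that mouse's alveolar fibroblasts had 119 and 31.6 CPM. No test was made on these subtypes.

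Across ages no Hox gene passed the test. The 14 comparisons between neighbouring ages within a class held 192 tests of Hox genes by edgeR. Of these, 0 were called and 12 had an unadjusted p under 0.05, as 2.36% to 21.0% of all genes per comparison did. DESeq2 called 7 of the 192 and limma on equally weighted cells 2, and their shares of all genes called are not given. The share of all genes called was 0% in each of the 6 comparisons of P7 with P1, and 0.0702%, 0.124%, 1.13%, 0.0886% and 0.0504% for P21 against P7 in alveolar fibroblasts, adventitial fibroblasts, airway smooth muscle, vascular smooth muscle and pericytes. P1 against E18.5 gave 0.17% in adventitial fibroblasts and 0.042% in pericytes. In alveolar fibroblasts it gave 6.16%, where the median over all genes was a log2 difference of 1.35 and the E18.5 libraries are the 2 that stood apart. Without the female E18.5 mouse 4 Hox genes were called there, among them Hoxa7, Hoxb5 and Hoxb6, and without the male one Hoxa2. The E18.5 group was then 1 library, of 24 or 14 cells, and was assumed to vary like the other groups. Sequencing run differed with age in the females (nearly all cells of E18.5 and P1 were in a shared run, and nearly all of P7 and of P21 in a different run each), while nearly all cells of the 4 normal-air males came from 1 run.

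Some Hox levels did not overlap between the 2 mice of one age and the 2 of the next, as was common over all genes. Hoxa5 in airway smooth muscle was 57.3 and 82.4 CPM at P1 and 12.2 and 19.3 CPM at P7 (log2 difference -2.21, SE 0.712, edgeR p = 0.0125, adjusted p = 0.919), and 14.8% of all genes were lower without overlap in that comparison. DESeq2 called it, with no share of all genes called given. Hoxa5 in adventitial fibroblasts was 55.3 and 52.2 CPM at E18.5 and 23.4 and 8.82 CPM at P1 (-1.79, SE 0.665, edgeR adjusted p = 0.484), where 15.3% of all genes were lower this way. Hoxb5 in airway smooth muscle was 132 and 146 CPM at P7 and 55.7 and 72.0 CPM at P21 (-0.78, SE 0.407, edgeR adjusted p = 0.552). The share of thinned airway cells with a Hoxb5 read was 66.7% and 71.4% at P7 and 32.3% and 17.9% at P21. Median genes detected per cell at that depth were 3169 and 2976 at P7 and 1944.5 and 1714.5 at P21, and the part of this in the share was not tested.

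Hoxa2 in alveolar fibroblasts was 56.2 and 55.1 CPM at P7 and 7.00 and 9.89 CPM at P21 (-2.48, SE 1.05, edgeR adjusted p = 0.689). Hoxb4 in myofibroblasts was 8.53 and 8.15 CPM at P1 and 32.9 and 48.7 CPM at P7 (2.21, SE 0.706, edgeR adjusted p = 0.588), where 27.2% of all genes were higher without overlap. DESeq2 called Hoxb4 there, and its share of all genes called is not given. Of the described genes, 6 were lower and 1 higher at P21 than at P7 in airway smooth muscle without overlap of the 2 mice, where 32.2% and 13.9% of all genes were. In alveolar fibroblasts 4 were lower and 0 higher (29% and 15.8% of all genes). A joint test of whether the age differences varied between 5 classes called 0 of 17 Hox genes (smallest edgeR adjusted p = 0.756, 0 with an unadjusted p under 0.05) and 0.408% of 16183 genes. DESeq2 also called 0.

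**Figure D4:**
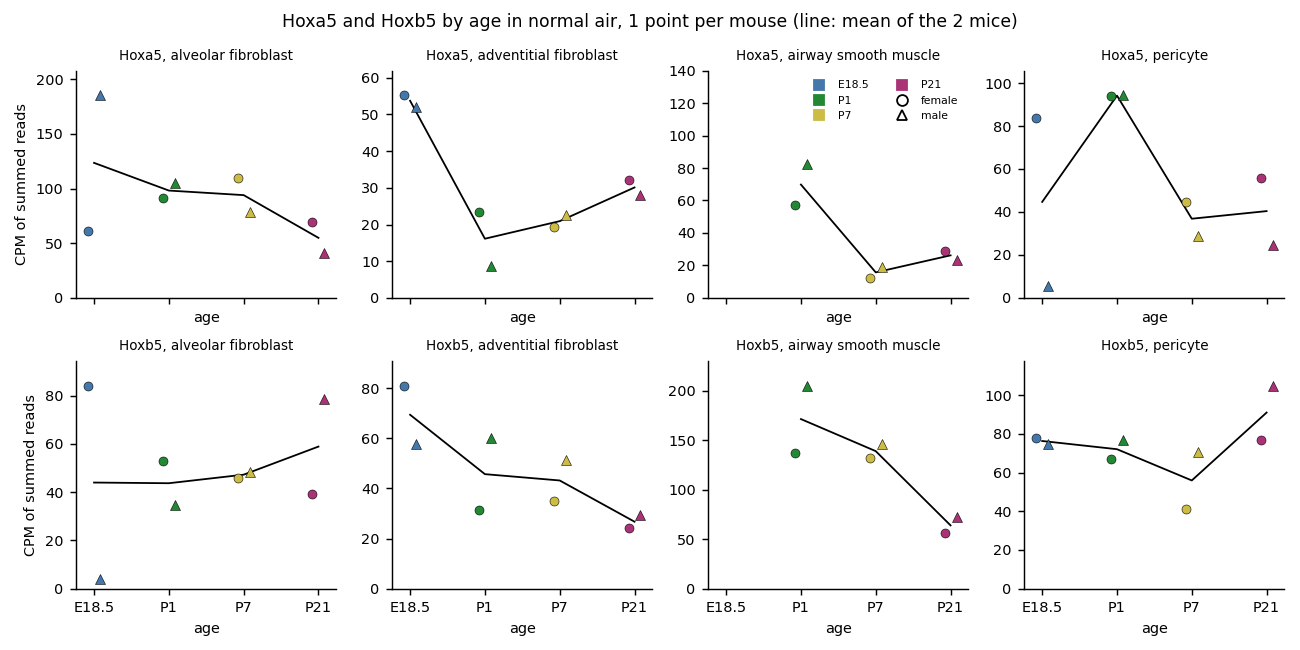
Level of Hoxa5 (upper row) and Hoxb5 (lower row) in CPM of summed reads against age in 4 classes in normal air. Points are single mice, lines join the means of the 2 mice, and each panel has its own vertical scale. The Hoxb5 points of airway smooth muscle lie at 132 CPM or more at P1 and P7 and at 72.0 CPM or less at P21.

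Hyperoxia at P7 moved no Hox gene past the test. In 5 classes (pericytes had under 10 cells in each hyperoxic mouse) edgeR made 70 tests of Hox genes, called 0, and found 1 with an unadjusted p under 0.05. It called 0 genes of any kind (0% in each of the 5 comparisons, with 2.57% to 8.01% of genes at an unadjusted p under 0.05), and DESeq2 and limma called 0 Hox genes. All but 9 cells of the hyperoxic mice came from sequencing runs that held no normal-air cells, so run and hyperoxia cannot be told apart.

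Levels that did not overlap between exposures went both ways. Hoxb5 was 46.0 and 48.5 CPM in normal air and 28.9 and 31.6 CPM in hyperoxia in alveolar fibroblasts. In adventitial fibroblasts Hoxb5 was 35.1 and 51.3 CPM against 26.4 and 30.2 CPM, and in airway smooth muscle 132 and 146 CPM against 80.0 and 81.6 CPM (log2 difference -0.80, SE 0.407, edgeR p = 0.0820, adjusted p = 1). Hoxb5 overlapped in myofibroblasts (178 and 247 CPM against 86.9 and 179.7 CPM) and in vascular smooth muscle.

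Hoxa5 in airway smooth muscle was 12.2 and 19.3 CPM in normal air and 41.0 and 65.2 CPM in hyperoxia, the smallest p of the exposure tests (1.74, SE 0.701, edgeR p = 0.0342, adjusted p = 1). Hoxb6 in myofibroblasts was 49.3 and 31.1 CPM against 69.6 and 99.7 CPM (1.06, SE 0.504, edgeR adjusted p = 0.800). In alveolar fibroblasts Hoxa2 was 56.2 and 55.1 CPM against 29.5 and 31.1 CPM, and Hoxa3 was 8.56 and 2.02 CPM against 20.9 and 16.4 CPM. Of the 11 described genes, 3 were higher and 4 lower without overlap in hyperoxic alveolar fibroblasts, where 27.2% of all genes were higher and 16.2% lower this way. In adventitial fibroblasts 3 were higher (31.3% of all genes) and 2 lower (14.1%). In myofibroblasts 3 were higher (24.1%) and 2 lower (22.6%). In airway smooth muscle 3 were higher (17.2%) and 2 lower (19.0%), and in vascular smooth muscle 3 were higher (22.8%) and 0 lower (13.3%). Hoxa3 was among the genes higher in 4 of these classes, all but airway smooth muscle. The classes come from the same mice, and the share of all genes higher in as many classes was not computed.

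The number of Hox genes detected per cell was higher in hyperoxia together with the number of all genes. In thinned alveolar fibroblasts it was 1.9 and 1.6 in normal air and 2.6 and 3.1 in hyperoxia, and in myofibroblasts 2.2 and 2.3 against 4.1 and 5.3. Median genes per cell at the same depth were 2305 and 2035.5 against 3549 and 4224 in alveolar fibroblasts, and 2233 and 2125.5 against 4479 and 5312 in myofibroblasts. The part of the latter in the former was not tested. The HoxB share of the summed level was 72.8% and 72.8% in normal-air and 73.3% and 68.3% in hyperoxic myofibroblasts, and 19.8% and 29.8% against 26.6% and 21.5% in alveolar fibroblasts. A joint test of whether the exposure difference varied between the 5 classes called 0 of 16 Hox genes and 0.106% of 16008 genes. Hoxa5 had its smallest p (edgeR p = 0.0238, adjusted p = 0.574). DESeq2 called Hoxa5, and its share of all genes called is not given.

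**Figure D5:**
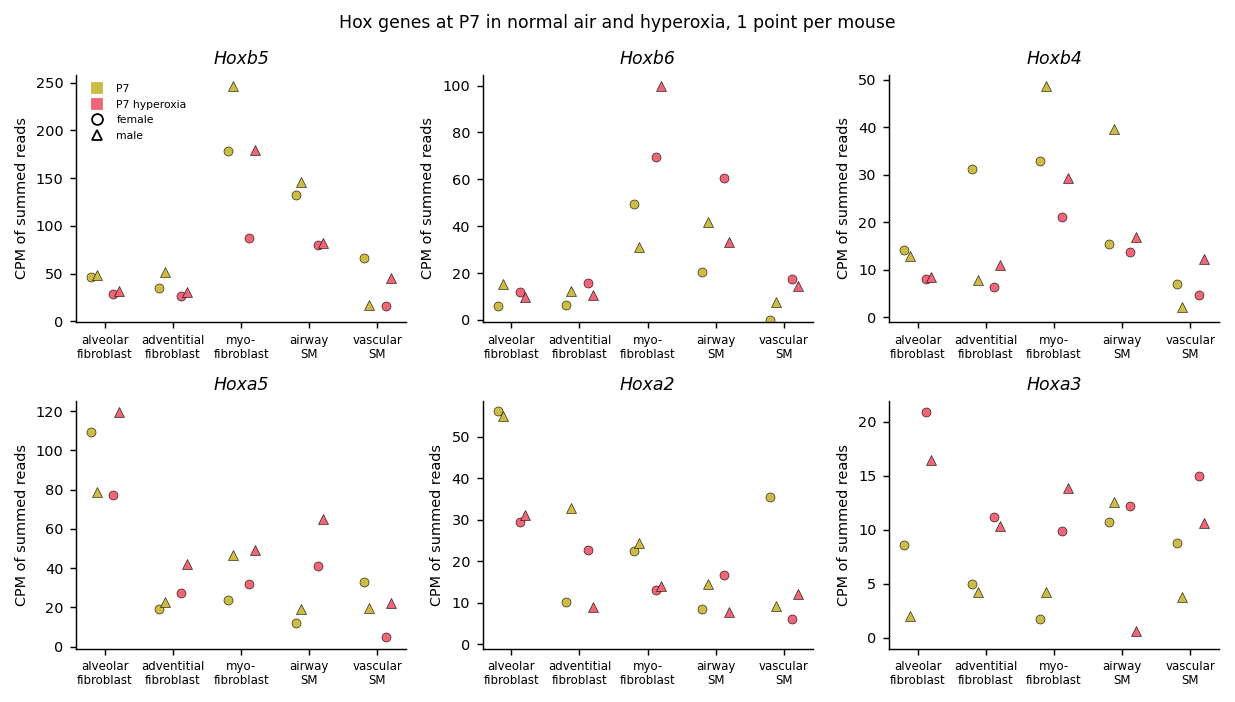
Level of 6 Hox genes at P7 in 5 classes, in CPM of summed reads, with normal air (left of each pair) and hyperoxia (right). Each point is 1 mouse, a circle for the female and a triangle for the male. Hoxb5 points are lower in hyperoxia in 3 classes without overlap, as 14.1% to 19.0% of all genes were in each of these. The classes come from the same mice, and no difference passed the test.

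Partners and regulators of Hox genes were counted over the same comparisons. All 9 TALE genes were tested in each comparison. Pbx3 was 17.3 to 37.4 CPM in airway and 0 to 2.46 CPM in vascular smooth muscle (edgeR adjusted p = 0.0142), where 3.99% of all genes were called. The Pbx3 call was lost without either P7 or either P21 mouse. No TALE gene passed the test between ages, at E18.5 or in hyperoxia.

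Of 19 Polycomb genes, Cbx6 was lower in pericytes than in vascular smooth muscle (-2.70, SE 0.601, edgeR adjusted p = 0.00355), where 7.39% of all genes were called. Cbx6 and Ezh2 were lower in pericytes than in alveolar fibroblasts (edgeR adjusted p = 0.0416 and 0.0343), where 13.4% of all genes were called. The first call was kept without each mouse in turn. The other 2 were each lost in 6 of the 8 fits with a mouse left out: that of Cbx6 was kept without the male P1 or female P21 mouse, and that of Ezh2 without the male E18.5 or male P21 mouse. None passed the test in the other comparisons. Of 10 Trithorax and H3K27 demethylase genes none passed in any comparison. Of the 7 noncoding genes of the Hox clusters, Hoxb3os passed in 1 comparison, pericytes against alveolar fibroblasts, where 13.4% of all genes were called. It was at 0.594 to 20.3 CPM in pericytes and 0.0737 to 9.85 CPM in alveolar fibroblasts (3.19, SE 0.95, edgeR adjusted p = 0.0213). The Hoxb3os call was kept in 3 of the 8 fits with a mouse left out, those without the female E18.5, male E18.5 or male P21 mouse. Hoxb3os shares exon bases with Hoxb2 and Hoxb3.

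The retinoic acid list, 17 of its 18 genes in the table, had 12 calls between classes, 4 higher and 8 lower. Of these, 6 of the lower ones were between pericytes and alveolar fibroblasts, where 13.4% of all genes were called, and 3 of the higher ones between airway and vascular smooth muscle (3.99%). Aldh1a2, an enzyme that makes retinoic acid, was higher in adventitial fibroblasts (10.7 to 176 CPM) than in alveolar fibroblasts (0 to 23.7 CPM; edgeR adjusted p = 0.00167). Rdh10, which makes retinal, had a median of 71.5 CPM in airway and 2.13 CPM in vascular smooth muscle (4.56, SE 1.34, edgeR adjusted p = 0.0463). The Aldh1a2 call was kept without each mouse, and that of Rdh10 was lost without either P1, either P7 or the female P21 mouse. Between ages 1 of its tests passed, Crabp1 in alveolar fibroblasts at P1 against E18.5 (lost in 8 of the 10 fits with a mouse left out, and kept without either E18.5 mouse), and none passed in hyperoxia.

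Tbx4 and Tbx5, T-box genes of lung mesenchyme, were 2 of the 4 tested of 7 axial patterning genes and had all 6 of that list's calls: 2 between adventitial and alveolar fibroblasts (4.16% of all genes called), 2 between pericytes and vascular smooth muscle (7.39%), 1 between airway and vascular smooth muscle (3.99%) and 1 between pericytes and alveolar fibroblasts (13.4%). Tbx4 was higher in airway (59.3 to 199 CPM) than in vascular smooth muscle (1.89 to 42.4 CPM; log2 3.43, SE 0.593, edgeR adjusted p = 0.000422), and in pericytes than in vascular smooth muscle (3.42, SE 0.571, edgeR adjusted p = 0.000139). Tbx5 was lower in adventitial than in alveolar fibroblasts (-1.86, SE 0.324, edgeR adjusted p = 0.000316).

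The genes whose levels over the 50 class libraries were most like those of the 2 highest Hox genes were ranked among 9245 genes by Pearson correlation of log2 levels. For Hoxb5 they were Tbx3 (0.74), Tcf7 (0.73), Tmeff1 (0.72), Egfem1 (0.69) and Fut8 (0.68). For Hoxa5 they were Dse (0.66), Cdan1 (0.64), Bmp4 (0.64), Plin2 (0.63) and Cacna1d (0.61). The libraries share mice and classes, so these are descriptions.

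The 10 genes under the 10 CPM rule were Hoxa6, Hoxa9, Hoxb3, Hoxb8, Hoxc4 and the 5 HoxD genes. Hoxb3 had a read in 10.1% of thinned cells and Hoxa6 in 2.58%, each at a low summed level. Hoxb8 had a read in 218 of 5480 cells and Hoxa9 in 52. Hoxc4 was the only HoxC gene. Over the cells of all 10 mice, the hyperoxic ones included, it had a read in 24 of 839 adventitial fibroblasts (2.86%, Wilson 95% interval 1.93% to 4.22%). Of 4641 other cells 36 had a read (0.776%, 0.561% to 1.07%). These intervals pool the mice, leave out the spread between them and test no difference. Per normal-air mouse Hoxc4 was 0 to 2.87 CPM in adventitial and 0 to 0.173 CPM in alveolar fibroblasts. After thinning the 2 shares of cells were 1.46% and 0.290%. Adventitial fibroblasts were higher than alveolar fibroblasts in Hoxc4 by a fitted log2 difference of 4.75 (SE 1.68), which did not pass (edgeR adjusted p = 0.123). Of the 621 Hoxc4 reads in adventitial cells 173 came from 1 cell. Hoxd8 had 660 reads in 75 cells, 265 of them in 1 cell. Hoxd3, Hoxd4, Hoxd9 and Hoxd10 had 13 to 30 reads each over all cells.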

How the data were processed

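Single cells of 10 mice were compared by class, age and exposure, with the mouse as the replicate and 1 mouse per sex and group. Between ages and exposures within a class, p-values measure only the spread between these mice. In the fits with the mouse as a block, they measure the spread left after the mouse is taken out. In the fit of classes over all normal-air ages, that spread includes class differences that vary with age. The authors deposited whole-number read counts per gene and cell. Per the submitters' processing notes the tools were STAR 2.5.2b and HTSeq 0.10, and the build listed is GRCh38, a human build, although the symbols are mouse. Annotation and strand setting are not given in the sources used here. Counts were summed per mouse and class (at least 10 cells) and tested two-sided with edgeR 4.0.16 (quasi-likelihood, TMM, filterByExpr) in R 4.3.3, with sex as a term between ages and exposures and the mouse as a block between classes. Benjamini-Hochberg adjustment ran over all genes of a comparison, and calls had an adjusted p under 0.05. DESeq2 1.42.0 and limma 3.58.1 (log2 of mean CPM + 1, each cell weighted equally) were alternatives. Levels per kilobase used exon lengths of GENCODE M21. Cells were thinned to 100000 reads for shares of cells, and Wilson 95% intervals were computed. The scripts were tested on simulated data.

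All 21 genes were analysed, and a few results are not reported here. A gene was described in full at 10 CPM in both mice of a group of a class, Hox genes past the threshold were named, and of the other lists up to 3 genes past it (4 for TALE genes) per comparison. The members and lists were chosen with earlier results of these data known. Mouse and class pair within a mouse because the classes come from the same animal. Doublets were not called here.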

Additional observations from a re-analysis of the deposited data

How the results depend on the processing

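Against 3 Hox calls between classes, DESeq2 made 14, limma 9, the fit without the replicate block 8 and the fit with the hyperoxia mice 11, while only P7 mice or only P21 mice gave 0. Leaving out each mouse gave 0 to 4, with 0 without the female P1 mouse and 1 each without the male P1 or male P7 mouse. Leaving out the E18.5 libraries, chosen after seeing the data, gave 4. Against 0 calls between ages, DESeq2 made 7, limma 2, and leaving out each mouse 0 to 4. The 4 came without the female E18.5 mouse, which left 1 library of 24 cells in that group, and 1 each without the female P1, male E18.5 or male P1 mouse. Against 0 calls between E18.5 subtypes, DESeq2 made 2, limma 2 and at least 20 cells 3, all from a subtype left with 1 library and assumed to vary like the others. There, leaving out a mouse leaves no residual degrees of freedom and was not run. For hyperoxia by class DESeq2 called 1 against 0. The paired analysis by replicate block changed no count for E18.5 subtypes (0). The tests of hyperoxia within each class, and the joint test of age by class, stayed at 0 calls in every alternative run. The cause of these differences was not tested, and the share of all genes called under each alternative is not given here.

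Over the alternatives that left out no single mouse, Hoxb5 differed by log2 1.68 to 2.43 for myofibroblasts against alveolar fibroblasts (call lost in 1 of 10). For airway against vascular smooth muscle it differed by 1.41 to 1.86 (lost in 4 of 11). Hoxb4 in pericytes against vascular smooth muscle differed by 2.74 to 3.69 (lost in 3 of 11). With each mouse left out in turn, these 3 calls were lost in 4, 4 and 2 of 8 fits. For the myofibroblast call, the 4 were the fits without each mouse that had myofibroblasts in normal air. Calls of named genes of the other lists were kept in 312 alternative fits, those with a mouse left out included, summed over genes, and lost in 121. No direction reversed. Depth of 100000 reads per cell and libraries of 14 to 393 cells limit the rarer genes.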
